A study of Homo sapiens with 12 samples.

Results

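The 10 genes described here, SYP, MAPT, RPRML, CHGA, CHGB, ENO2, TUBB3, SNAP25, SYT1 and MAG, are neuronal, neuroendocrine and myelin genes, measured in SW-13 cells with and without BRG1. They were taken as all probes whose array annotation names one of these symbols, which gave 16 of the 48803 probes on the array and 10 of its 18665 named genes. SYP and MAPT were chosen by their fall in normalized log2 intensity with BRG1, and RPRML was listed with its fall already known from these arrays, so their differences between viruses are given below as descriptions with no test. A set of neuronal genes lowered by BRG1 described only part of the data. SYP, MAPT, RPRML, CHGA and CHGB were lower with BRG1, ENO2, TUBB3 and MAG were higher, SNAP25 did not pass the test, and neither SYT1 probe was above background on any array.

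SW-13 cells, a line from a human adrenal carcinoma, have no BRG1, the ATPase of the SWI/SNF chromatin remodeling complex encoded by SMARCA4. One set of cells carried Ad-BRG1, an adenovirus encoding BRG1 fused to GFP, and their controls carried Ad-GFP, an adenovirus encoding GFP alone, so that all cells had a virus and a GFP sequence. Within each virus, cells received human IFNγ for 6 h or were left untreated, which gave Ad-BRG1 with IFNγ, Ad-BRG1 untreated, Ad-GFP with IFNγ and Ad-GFP untreated, each with 3 arrays of biological replicates. The methods state that the virus dose was adjusted to give the BRG1 protein level of HeLa cells, so the model is 1 line with BRG1 supplied from a virus. Expression was read on Illumina Human-WG6 BeadChips, and values below are either raw probe intensity or the normalized log2 intensity after background correction.

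Synaptophysin and tau are part of the machinery of the nerve terminal and the axon, while chromogranins fill the dense-core granules of neuroendocrine cells such as those of the adrenal medulla. Outside neurons many such genes are held down by the repressor REST, which binds a sequence called RE1 and recruits the CoREST and SIN3 corepressors, and SWI/SNF complexes with BRG1 have been found at REST-bound sites. Pathologists use synaptophysin, chromogranin A and neuron-specific enolase together as stains for neuroendocrine differentiation.

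Total signal was similar among arrays, with a mean raw intensity of 539.9 to 666 and 15741 to 16828 probes detected at p under 0.05. Detection p is the authors' rank of a probe against negative control beads. SMARCA4 lay between 8.39 and 8.75 with Ad-BRG1 and between 8.57 and 8.81 with Ad-GFP on the normalized log2 scale. The position of its probe relative to the viral sequence was not given, so it does not check the virus labels. IRF1, a direct target of IFNγ signaling, lay between 13.09 and 13.85 on the 6 IFNγ arrays and between 7.90 and 8.62 on the 6 untreated arrays, so that each array lay where its IFNγ label puts it. Of 11 adrenal cortex markers on the array, 8 were not above background, among them NR5A1, STAR, CYP17A1 and CYP21A2. Of 9 chromaffin and sympathetic genes on the array, 7 were not above background, among them TH, DBH and PNMT. The other 2 of that list were detected, as were 3 of the cortex list, SCARB1, FDX1 and CYP11A1.

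RefSeq promoter windows (GRCh38.p14, 250 bases before to 50 bases after an annotated start) were matched for 7 of the 10 genes, 8 windows in all, and 4 are shown because SYP, RPRML and CHGA moved together and ENO2 moved the other way. MAPT, CHGB and SNAP25 were not matched. Capitals mark exact matches on either strand to CCGCCC, the GC box bound by Sp factors, to GGACAG, the right part of the RE1 element, and to TGACGTCA, the cAMP response element, and no 2 matches overlap.
SYP, chrX:49200144-49200443, minus strand: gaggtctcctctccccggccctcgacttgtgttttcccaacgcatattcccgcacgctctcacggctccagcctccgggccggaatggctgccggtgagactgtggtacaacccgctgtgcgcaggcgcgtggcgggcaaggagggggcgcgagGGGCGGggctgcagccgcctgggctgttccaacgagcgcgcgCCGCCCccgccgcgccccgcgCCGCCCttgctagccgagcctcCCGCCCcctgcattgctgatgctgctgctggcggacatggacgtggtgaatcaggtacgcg
RPRML, chr17:46979204-46979503, minus strand: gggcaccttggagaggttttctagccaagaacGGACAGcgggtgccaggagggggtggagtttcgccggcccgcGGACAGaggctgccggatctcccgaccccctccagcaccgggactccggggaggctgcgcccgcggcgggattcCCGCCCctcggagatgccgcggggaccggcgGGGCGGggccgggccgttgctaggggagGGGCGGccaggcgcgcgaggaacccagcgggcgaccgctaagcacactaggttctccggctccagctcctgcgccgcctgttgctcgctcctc
CHGA, chr14:92922900-92923199, plus strand: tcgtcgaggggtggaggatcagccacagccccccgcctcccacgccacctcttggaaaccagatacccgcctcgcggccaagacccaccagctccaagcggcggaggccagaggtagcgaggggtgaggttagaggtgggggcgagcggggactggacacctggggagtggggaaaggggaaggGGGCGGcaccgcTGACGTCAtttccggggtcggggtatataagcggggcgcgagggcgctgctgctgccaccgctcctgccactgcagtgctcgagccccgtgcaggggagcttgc
ENO2, chr12:6914330-6914629, plus strand: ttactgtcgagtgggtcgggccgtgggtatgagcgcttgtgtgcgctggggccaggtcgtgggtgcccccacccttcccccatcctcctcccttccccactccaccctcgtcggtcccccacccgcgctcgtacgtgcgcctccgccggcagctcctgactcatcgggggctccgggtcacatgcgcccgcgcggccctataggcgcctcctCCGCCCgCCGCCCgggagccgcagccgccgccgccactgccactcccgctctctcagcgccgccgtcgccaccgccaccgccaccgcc

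These 4 windows were rich in GC, at 71.3% in SYP, 73.7% in RPRML, 69.3% in CHGA and 75% in ENO2, against a median of 58.7% over 35116 promoter windows of the same length. They held 35, 34, 24 and 38 CpG dinucleotides in the same order, against a median of 14. The GC box matched 4 times in SYP, 3 times in RPRML, once in CHGA and 2 times in ENO2, and 45% of all windows held it. Among the 4 windows shown, that of ENO2, which was higher with BRG1, thus resembled those of SYP and RPRML, which were lower, in base composition and GC boxes. Windows of other genes that were higher varied. That of MAG held 8 CpG and 0 GC boxes, and the 2 TUBB3 windows held 9 and 47 CpG and 0 and 5 GC boxes. The left part of RE1, TTCAGCACC, matched in none of the 8 windows and in 0.376% of all windows. GGACAG matched 2 times in RPRML and once each in 1 of the 2 TUBB3 windows and in SYT1, and is found in 20.5% of windows. TGACGTCA matched in CHGA and in no other of the 8 windows, and is found in 1.85%. TATAAA, searched as well, matched in none of the 8 and in 11.5% of all windows. These matches describe letters in a window and were not tested as binding sites.

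Of the 16 probes, 9 were detected at p under 0.05 on every array of some group, and these 9 represent 9 genes. SYP, MAPT, RPRML, CHGA, CHGB, ENO2, TUBB3 and SNAP25 were detected on all 12 arrays with 1 probe each. MAG was detected on 7 arrays, so it entered the test only through the cells with BRG1. The other 7 probes, both of SYT1, 3 of the 4 for MAPT, and 1 each of SNAP25 and MAG, were detected in 1 of 84 readings, with raw intensities of 118 to 172. The fall of tau therefore rests on 1 of its 4 probes. At the stricter detection p of 0.01, SNAP25 and MAG also counted as background, which made 3 genes with SYT1.

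**Figure D1:**
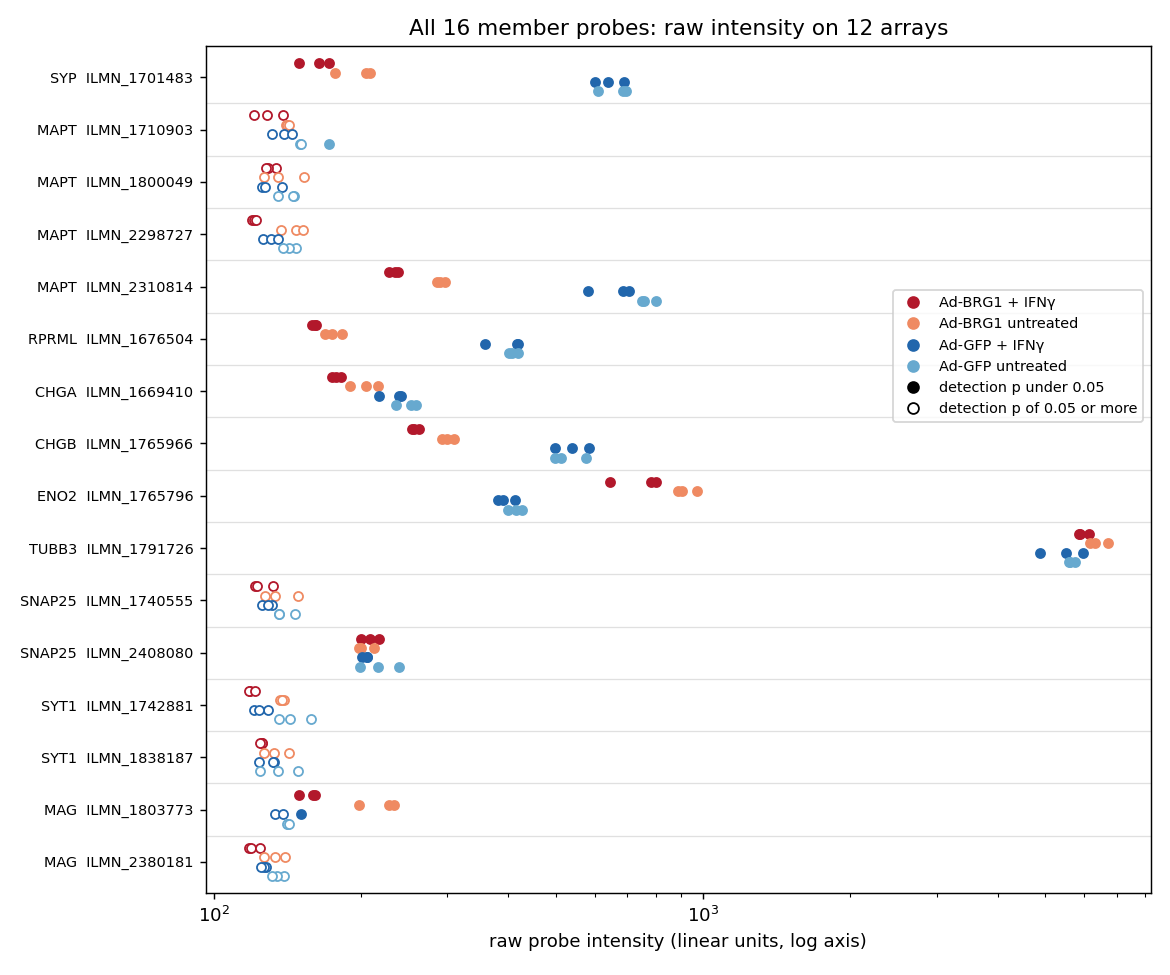
Raw intensity of all 16 probes of the 10 genes on the 12 arrays (log axis, linear units), with 1 row per probe, 1 colour per group and 1 point per array; filled points have a detection p under 0.05 and open points do not. The 7 probes with open points on nearly every array lie between 118 and 172, and the SYP probe comes close to that range in cells with BRG1, at 150 to 208.

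SYP, which encodes synaptophysin, the major membrane protein of synaptic vesicles, had the most negative difference of all 10333 genes in both BRG1 comparisons. Its normalized log2 intensity was 6.33, 6.40 and 5.86 in untreated Ad-BRG1 cells, against 9.04, 9.06 and 8.89 in untreated Ad-GFP cells. With IFNγ it was 6.01, 5.81 and 5.55 in Ad-BRG1 cells, against 9.09, 8.97 and 9.05 in Ad-GFP cells. Every array with BRG1 lay far below every array without it. Among the arrays with BRG1, those with IFNγ (5.55 to 6.01) overlapped the untreated ones (5.86 to 6.40). The log2 difference was -2.80 (SE 0.14) untreated and -3.25 (SE 0.14) with IFNγ. Raw intensity was 208, 205 and 177 in untreated Ad-BRG1 cells and 695, 687 and 609 in untreated Ad-GFP cells. The size of the fall depended on background correction, because on the authors' average-normalized intensity it was 3.28-fold untreated and 3.56-fold with IFNγ. In bulk RNA, fewer cells with a transcript and less transcript per cell cannot be told apart, here or in the results that follow.

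RPRML, the Reprimo-like gene, is a paralog of RPRM, a cell cycle arrest gene induced by p53, and had the next most negative difference in both comparisons. It gave 5.82, 5.81 and 5.68 on the log2 scale in untreated Ad-BRG1 cells, against 8.03, 8.14 and 8.13 in untreated Ad-GFP cells. With IFNγ it gave 5.70, 5.73 and 5.83 in Ad-BRG1 cells and 8.18, 8.19 and 8.03 in Ad-GFP cells. The values with BRG1 were close to each other with and without IFNγ, and so were those without BRG1. The differences were -2.32 (SE 0.07) untreated and -2.38 (SE 0.07) with IFNγ, and on average-normalized intensity they were 2.27-fold and 2.22-fold falls. Its paralog RPRM was not above background on any array.

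MAPT encodes tau, which binds and stabilizes axonal microtubules, and its detected probe, ILMN_2310814, ranked 7th from the most negative difference untreated and 10th with IFNγ. It read 7.29, 7.41 and 7.49 in untreated Ad-BRG1 cells, against 9.29, 9.21 and 9.27 in untreated Ad-GFP cells. With IFNγ it read 6.98, 7.01 and 7.16 in Ad-BRG1 cells, against 9.08, 9.14 and 8.99 in Ad-GFP cells. Tau was thus lower on all 6 arrays with BRG1, by -1.86 (SE 0.07) on the log2 scale untreated and by -2.02 (SE 0.07) with IFNγ. On average-normalized intensity the falls were 2.58-fold and 2.52-fold.

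**Figure D2:**
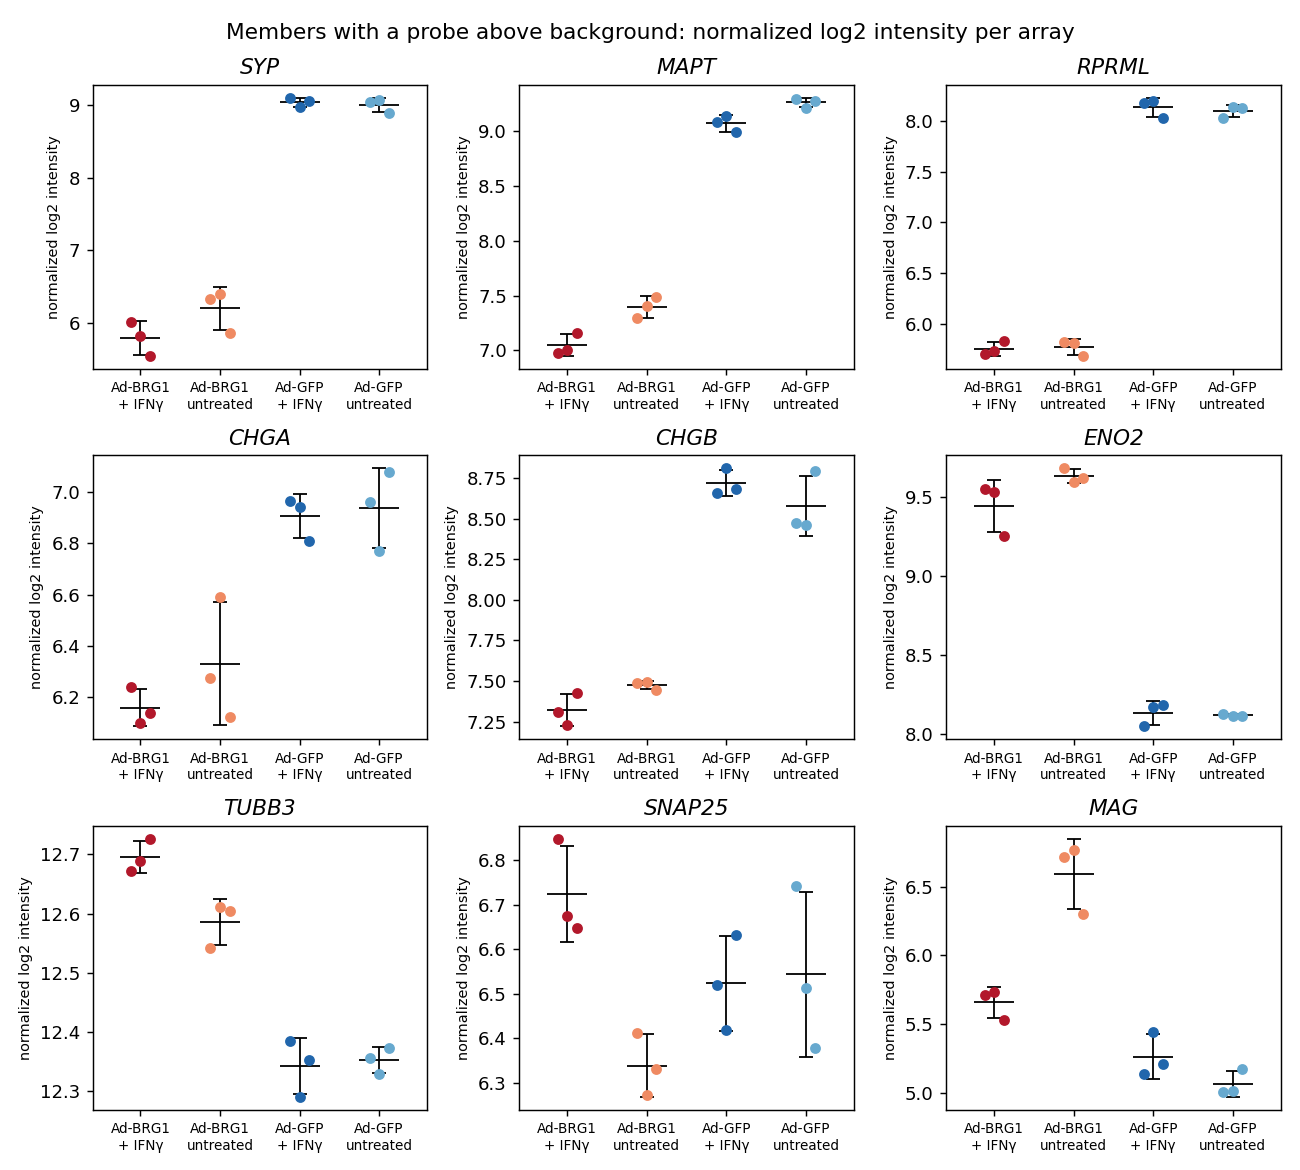
Normalized log2 intensity of the 9 genes above background, 1 panel per gene with its own vertical scale; each point is 1 array, the long line is the mean and the bars are the SD of 3 arrays. SYP, MAPT, RPRML, CHGA and CHGB sit lower in both Ad-BRG1 groups than in both Ad-GFP groups, ENO2 and TUBB3 sit higher, and MAG is high mainly in untreated Ad-BRG1 cells.

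MAG passed the detection filter only through its Ad-BRG1 arrays, which favoured a higher value with BRG1, so its difference is described with no test. Of the other 5 detected genes not listed for their fall, 4 passed the test in each BRG1 comparison, which 57.1% of all genes tested did without IFNγ and 61.1% with IFNγ. Of these 4, CHGA and CHGB fell, as 30.3% of all genes did untreated and 32.8% with IFNγ. ENO2 and TUBB3 rose, as 26.7% did untreated and 28.3% with IFNγ. The untreated groups did not overlap on single arrays for the same 4 of the 5 genes, as for 62.8% of all genes, and with IFNγ for 5 of the 5, against 65.3%. The median of all genes was -0.03 on the log2 scale in each comparison.

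Both chromogranins fell. CHGB, a core protein of secretory granules, read 7.49, 7.49 and 7.45 in untreated Ad-BRG1 cells, against 8.48, 8.46 and 8.79 in untreated Ad-GFP cells. With IFNγ it read 7.31, 7.23 and 7.43 in Ad-BRG1 cells, against 8.66, 8.81 and 8.68 in Ad-GFP cells. The lowest array without BRG1 was above the highest array with it, and the fall was 2.15-fold untreated (log2 -1.10, SE 0.09, limma adjusted p = 6.24e-07) and 2.63-fold with IFNγ (log2 -1.40, SE 0.09, limma adjusted p = 5.62e-08). A fall of 2-fold or more that also passed the test was seen in 2.21% of all genes untreated and in 2.85% with IFNγ. On average-normalized intensity the falls of CHGB were below 2-fold, at 1.71-fold and 1.87-fold.

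CHGA, the granule protein that is measured in blood as a neuroendocrine tumor marker, moved less. It read 6.28, 6.59 and 6.13 in untreated Ad-BRG1 cells, against 6.96, 6.77 and 7.08 in untreated Ad-GFP cells. With IFNγ it read 6.24, 6.10 and 6.14 in Ad-BRG1 cells and 6.97, 6.94 and 6.81 in Ad-GFP cells. The untreated groups were separated by only a small gap, from 6.59 in Ad-BRG1 to 6.77 in Ad-GFP, and the IFNγ groups by a wider one. The fall was 1.52-fold untreated (log2 -0.60, SE 0.11, limma adjusted p = 0.000586) and 1.67-fold with IFNγ (log2 -0.74, SE 0.11, limma adjusted p = 0.000101). On average-normalized intensity it was 1.19-fold and 1.17-fold.

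ENO2 and TUBB3 went the other way. ENO2, the neuron-specific isoform of the glycolytic enzyme enolase, read 9.68, 9.59 and 9.62 in untreated Ad-BRG1 cells, against 8.12, 8.12 and 8.12 in untreated Ad-GFP cells. With IFNγ it read 9.55, 9.53 and 9.25 in Ad-BRG1 cells, against 8.05, 8.17 and 8.18 in Ad-GFP cells. All 6 arrays with BRG1 were at 9.25 or above, and all 6 without it were at 8.18 or below. ENO2 rose 2.86-fold untreated (log2 1.51, SE 0.08, limma adjusted p = 1.04e-08) and 2.48-fold with IFNγ (log2 1.31, SE 0.08, limma adjusted p = 3.25e-08). A rise of 2-fold or more that passed the test was seen in 4.84% of all genes untreated and in 5.56% with IFNγ.

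TUBB3, the class III beta-tubulin used to stain young neurons, read 12.54, 12.61 and 12.60 in untreated Ad-BRG1 cells and 12.36, 12.33 and 12.37 in untreated Ad-GFP cells. With IFNγ it read 12.67, 12.69 and 12.73 in Ad-BRG1 cells and 12.39, 12.29 and 12.35 in Ad-GFP cells. The groups did not overlap, and the spread within each was small. The rise was 1.18-fold untreated (log2 0.23, SE 0.06, limma adjusted p = 0.00328) and 1.28-fold with IFNγ (log2 0.35, SE 0.06, limma adjusted p = 0.000139).

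MAG, the myelin-associated glycoprotein of oligodendrocytes and Schwann cells, was detected in all 3 untreated Ad-BRG1 cultures and in none of the untreated Ad-GFP cultures. Its detected probe had raw intensities of 233, 228 and 198 in untreated Ad-BRG1 cells, against 142, 141 and 142 in untreated Ad-GFP cells. With IFNγ it had 159, 161 and 149 in Ad-BRG1 cells, all detected, against 133, 151 and 138 in Ad-GFP cells, of which 1 was detected. MAG was thus above background only where BRG1 was supplied, apart from 1 Ad-GFP array with a detection p of 0.0474. Untreated, MAG was at least 2.33-fold higher with BRG1 on the background-corrected scale, taking as its level in Ad-GFP cells the lowest normalized value of any detected probe on each array. This bound, like the others written as at least, holds on that scale only, and on average-normalized intensity, where background is not subtracted, the same difference was 1.59-fold. With IFNγ MAG was 1.31-fold higher (log2 0.39, SE 0.12), or 1.24-fold on average-normalized intensity. Its other probe, ILMN_2380181, was not detected on any array, so the rise rests on 1 of 2 probes.

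SNAP25, a SNARE protein of vesicle fusion, and SYT1, the calcium sensor of that fusion, showed no called difference between viruses. SNAP25 read 6.41, 6.27 and 6.33 in untreated Ad-BRG1 cells and 6.74, 6.51 and 6.38 in untreated Ad-GFP cells. With IFNγ it read 6.85, 6.67 and 6.65 in Ad-BRG1 cells and 6.52, 6.42 and 6.63 in Ad-GFP cells. The untreated groups overlapped, and the IFNγ groups were separated by less than the range of either. Untreated, the log2 difference was -0.20, with a 95% interval of -0.41 to 0.0049 and a limma adjusted p of 0.0887. With IFNγ it was 0.20, with a 95% interval of -0.010 to 0.41 and a limma adjusted p of 0.0914. Without the third untreated Ad-GFP replicate the untreated difference was -0.29 with an adjusted p of 0.0293, and on average-normalized intensity the IFNγ difference was 0.19 with an adjusted p of 0.0181. SYT1 had raw intensities of 118 to 158 on its probes, so no difference could be measured for it.

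**Figure D3:**
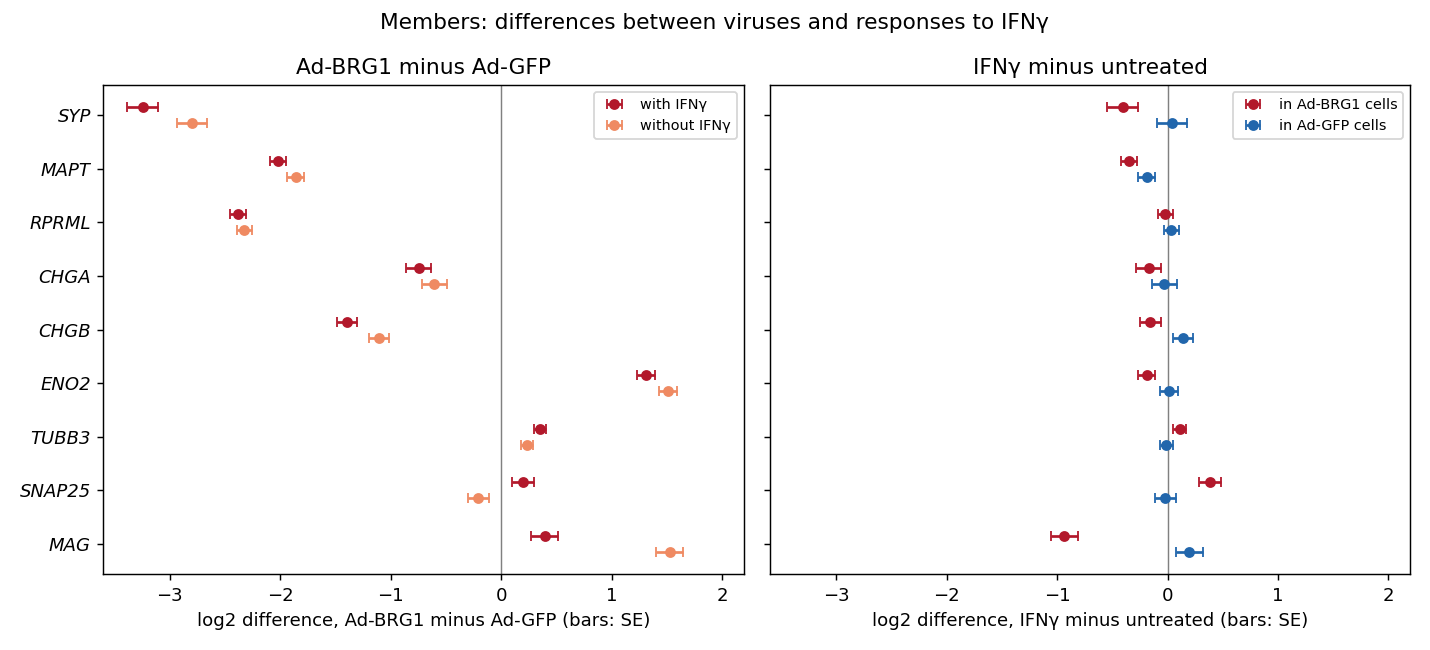
Log2 differences of the 9 genes above background, with bars of 1 SE: Ad-BRG1 minus Ad-GFP on the left, with and without IFNγ, and IFNγ minus untreated on the right, for each virus. Differences between viruses span -3.25 in SYP to 1.53 in MAG, while responses to IFNγ lie between -0.41 and 0.38 except that of MAG in Ad-BRG1 cells, at -0.93.

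The response of these genes to IFNγ was not used to choose them, although it is read on the same arrays as the differences above. In Ad-BRG1 cells 4 of the 9 detected genes passed the test, against 32.7% of all genes, 13.1% higher and 19.6% lower. The groups did not overlap for 6 of the 9, against 42.9% of all genes. MAG fell 1.91-fold with IFNγ (log2 -0.93, SE 0.12, limma adjusted p = 0.000177), and its 3 IFNγ arrays were all below the 3 untreated arrays. On average-normalized intensity this fall was 1.24-fold (log2 -0.31, adjusted p = 0.00233). MAPT fell 1.27-fold (log2 -0.35, SE 0.07, limma adjusted p = 0.0047), again without overlap, and SNAP25 rose 1.31-fold (log2 0.38, SE 0.10, limma adjusted p = 0.0107). On average-normalized intensity the MAPT response was -0.13 with an adjusted p of 0.0938. SYP gave a log2 difference of -0.41 (SE 0.14, limma adjusted p = 0.0414) with overlapping groups. This call was lost in 9 of the 12 fits that left out 1 array, with values between -0.58 and -0.29, and SYP was -0.10 on average-normalized intensity, with an adjusted p of 0.258.

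The other 5 detected genes did not pass. In Ad-BRG1 cells the log2 response to IFNγ was -0.19 for ENO2, -0.17 for CHGA, -0.15 for CHGB, -0.02 for RPRML and 0.11 for TUBB3. For ENO2, CHGA, CHGB and TUBB3 the differences between viruses were larger in size than these responses. RPRML was listed for its fall between viruses, so it is left out of this comparison. In Ad-GFP cells 0 of the 9 genes passed with limma, where 4.07% of all genes did. At an unadjusted p under 0.05, MAPT alone was counted there, with a log2 difference of -0.19 (SE 0.07) and an adjusted p of 0.19.

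The interaction was taken as the log2 change with IFNγ under Ad-BRG1 less the change under Ad-GFP. It passed the limma test for 8.15% of all genes, 3.83% lower and 4.32% higher. Of the 9 genes only MAG was counted. MAG passed the detection filter only through its Ad-BRG1 arrays, so its interaction is described with no test. It was -1.13 on the log2 scale (SE 0.17). With the untreated Ad-GFP cells, where MAG was detected on no array, raised to the detection bound it was -0.82, and on average-normalized intensity it was -0.36. MAG had no room to fall below background in Ad-GFP cells, so its interaction largely restates its fall in Ad-BRG1 cells. SNAP25 had 0.40 (SE 0.14, adjusted p = 0.0797), SYP had -0.45 (SE 0.20, adjusted p = 0.155) and CHGB had -0.30 (SE 0.13, adjusted p = 0.151). For SYP the call depended on 1 array, since without the third untreated Ad-BRG1 replicate the interaction was -0.62 with an adjusted p of 0.0251. The 2 responses share no array, but each is read on arrays that also enter the BRG1 differences.

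Across the 12 arrays the genes fell into opposite patterns, given here as Pearson r over arrays that differ mainly by virus. SYP correlated with RPRML at 0.99, with MAPT and CHGB at 0.98 and with CHGA at 0.95, and with ENO2 and TUBB3 at -0.97. SNAP25 was near 0 with SYP, at -0.04. SYP, MAPT and RPRML were listed for their fall between viruses, so the r values among them follow from that choice. Those with the other genes mainly repeat the differences between viruses. The 5 genes most like SYP were DLL3, a Notch ligand, PODXL2, SLC7A1, a transporter of cationic amino acids, FAM86C1P and PER2, a circadian repressor, with r between 0.996 and 0.998. Their untreated log2 differences ran from -0.99 for PODXL2 to -1.80 for DLL3. For MAPT the 5 were ACOT2, NUDT1, E2F2, NFYC and HBQ1, with r between 0.995 and 0.996, and for RPRML they were COMMD1, ALKBH2, SLC68A1, DPH2 and COPS7A, with r between 0.996 and 0.998. No other gene of the 10 was among these.

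To see whether the fall of SYP and MAPT extended to other genes, 163 further neural and neuroendocrine genes were counted. This set includes the myelin and glia list and RPRM, and 146 of its genes were on the array and 55 above background. In the untreated comparison 17 rose, among them MAL and CLDN11 of the myelin and glia list, 11 fell and 27 did not pass. That is 50.9% called, below the 57.1% of all genes, and the median difference was 0.03, against -0.03 for all genes. With IFNγ, 14 rose, 17 fell and 24 did not pass, or 56.4% called. Calls thus went in both directions in each comparison. Of the 55, 5 passed the detection filter only through Ad-BRG1 groups, which favoured a rise. Another 3 passed only through Ad-GFP groups, which favoured a fall. Among the other 47, 13 rose, 9 fell and 25 did not pass untreated, and 13 rose, 16 fell and 18 did not pass with IFNγ.

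Among 12 other detected genes of synaptic vesicles and exocytosis, 2 rose and 3 fell untreated. BSN, a scaffold of the presynaptic active zone, fell 2.30-fold (log2 -1.20, SE 0.14, limma adjusted p = 9.72e-06), or 1.40-fold on average-normalized intensity. It read 5.94, 5.72 and 5.70 in untreated Ad-BRG1 cells and 7.06, 6.83 and 7.07 in untreated Ad-GFP cells. SYT11 fell 1.58-fold, RAB3B was at least 1.29-fold higher on the background-corrected scale and higher by a log2 difference of 0.26 on average-normalized intensity. DNM1, the neuronal dynamin, was 1.39-fold higher with overlapping groups, a call lost when any of 4 single arrays was left out. RAB3B and DNM1 passed the detection filter only through Ad-BRG1 groups. SYN1, which coats synaptic vesicles, was not above background.

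Neuronal cytoskeleton genes split, with 5 up, 4 down and 7 not passing of 16. Of these, 1 passed the detection filter only through Ad-GFP groups, which favoured a fall. Among the other 15, 5 rose, 3 fell and 7 did not pass. TUBB2B, a beta-tubulin of developing neurons, rose 7.60-fold (log2 2.93, SE 0.07, limma adjusted p = 1.02e-11). It read 11.40, 11.48 and 11.41 in untreated Ad-BRG1 cells, against 8.47, 8.56 and 8.48 in untreated Ad-GFP cells. TUBB2A rose 3.46-fold and INA, the intermediate filament alpha-internexin, 2.47-fold (1.48-fold on average-normalized intensity), whereas TUBB4A fell 1.87-fold. TUBB2A and TUBB2B are close in sequence, and cross-hybridization of their probes was not tested. The neurofilaments NEFL and NEFM, GAP43 and DCX, all defining genes of neurons, were not above background.

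CHGA and CHGB fell in the neuroendocrine secretory list, and of its 8 other detected genes 4 rose, 0 fell and 4 did not pass. VGF, a granin-like precursor of secreted peptides, rose 6.27-fold (log2 2.65, SE 0.09, limma adjusted p = 2.78e-10), or 3.55-fold on average-normalized intensity. It read 9.47, 9.48 and 9.29 in untreated Ad-BRG1 cells, against 6.80, 6.89 and 6.61 in untreated Ad-GFP cells. PCSK1N, an inhibitor of prohormone processing, rose 1.55-fold, PAM, which amidates peptides, 1.36-fold, and UCHL1 1.39-fold. SCG2, another granin, was not above background.

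Of 6 detected neuronal transcription and splicing factors, 1 rose and 3 fell. MYT1, which passed the detection filter only through Ad-GFP groups, was 1.64-fold lower. ISL1, like MYT1 a transcription factor of neural differentiation, fell 1.48-fold and ELAVL3 1.27-fold, while NOVA1 rose 1.22-fold. The ELAVL3 call was lost when any of 4 single arrays was left out and on average-normalized intensity (log2 -0.09, adjusted p = 0.236). Of 10 detected channels, receptors and adhesion genes, 3 rose and 1 fell, with CNTNAP1 up 1.87-fold, KCNH2 up 1.36-fold, GLRB up 1.24-fold and GRIN1 down 1.25-fold. Without the third untreated Ad-GFP or the first untreated Ad-BRG1 replicate, GLRB did not pass.

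**Figure D4:**
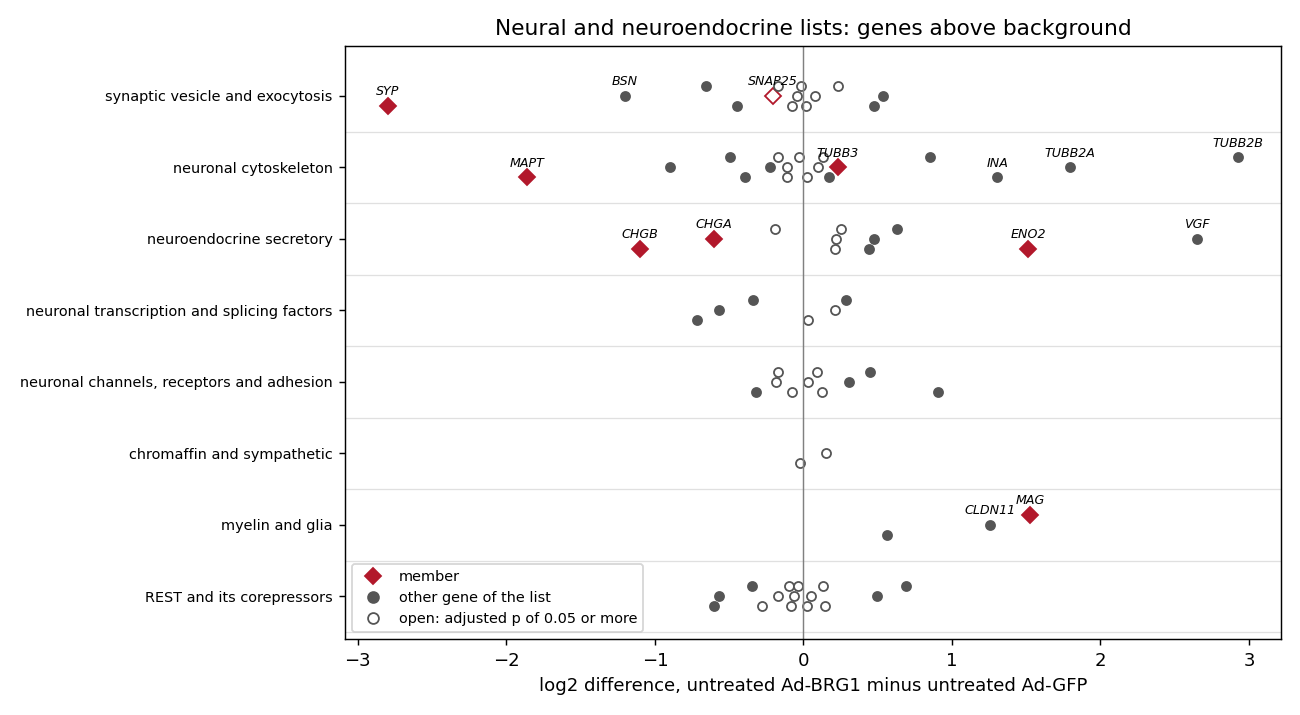
Log2 difference of untreated Ad-BRG1 minus untreated Ad-GFP cells for each gene above background in 8 lists, 1 row per list; diamonds are the genes described here, dots are other genes, and open symbols have an adjusted p of 0.05 or more. Within one list genes lie on both sides of 0, as with CHGB at -1.10 and VGF at 2.65, or MAPT at -1.86 and TUBB2B at 2.93.

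In the myelin and glia list 12 of 15 genes on the array were not above background. Its 2 detected genes besides MAG, CLDN11 and MAL, also passed the filter only through Ad-BRG1 groups. This favoured a rise, and they are given as values. CLDN11, a tight junction protein of myelin, was at least 1.86-fold higher untreated on the background-corrected scale and 1.48-fold higher on average-normalized intensity. MAL, a membrane raft protein, was 1.48-fold and 1.23-fold higher on these scales. MBP and MOG, which define compact myelin, and the glial transcription factors SOX10 and OLIG2 were not above background.

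REST itself was not above background, with detection on 1 of 12 arrays and raw intensities of 132 to 160. Of 15 other detected genes of the REST corepressor list, 2 rose, 3 fell and 10 did not pass untreated, where 57.1% of all genes passed. CTDSPL, a phosphatase that acts with REST, rose 1.61-fold and RCOR2, a CoREST paralog, 1.41-fold, while CTDSP2, a phosphatase of the same family, fell 1.51-fold and PHF21A, a reader in the LSD1 complex, 1.48-fold. With IFNγ, 6 rose, 6 fell and 3 did not pass, where 61.1% of all genes passed, 28.3% higher and 32.8% lower. Any part of these genes in the fall of SYP, MAPT or RPRML was not tested.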

How the data were processed

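RNA from 12 SW-13 cultures (4 groups of 3) was hybridized to 1-colour Illumina Human-WG6 BeadChips. The authors deposited raw probe intensity from BeadStudio (version not given in the sources used here), without background subtraction, and a detection p-value per probe and array. A second deposited set holds intensity after the authors' average normalization and served as an alternative. Raw values were background-corrected, quantile-normalized and log2-transformed with neqc (limma 3.58.1, R 4.3.3, offset 16, negative controls inferred from detection p-values). Folds of dim genes depend on that correction. Probes detected at p under 0.05 on every array of some group were kept, and the probe with the highest mean stood for its gene (10333 genes). One mean per group was fitted (lmFit, eBayes, two-sided, 8 residual and 4.24 prior degrees of freedom), with Benjamini-Hochberg adjustment over all genes of a comparison and a threshold of 0.05. The fit was tested on simulated data. A group with no array detected was raised to the lowest normalized value among detected probes of each array (5.35 to 5.44), and its fold written as at least. Figures used Python 3.11.15 and matplotlib 3.10.9.

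Members and gene lists were chosen with earlier results of these data known. Named genes are the 10 members, up to 4 called genes per list with the largest untreated difference, genes needed to state that they are at background, the 5 genes most correlated with SYP, MAPT and RPRML, and SMARCA4 and IRF1. SYN2, CTDSP1, ENO1, ENO3, TUBB and CYP11A1 were named after their values were seen, and the GC box, TATAAA and TGACGTCA motifs were added later too. Columns of unmapped samples used: 0. Alternatives were other normalizations, filters and probe rules, the replicate block and leaving out each array. The number of arrays limits the precision.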

Additional observations from a re-analysis of the deposited data

Results flagged for a closer look

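By a test of the interaction in limma, the IFNγ response differed between Ad-BRG1 and Ad-GFP cells for 4 listed genes besides MAG. MAG was flagged too, but it passed the detection filter only through its Ad-BRG1 arrays, so it is described with no test. MAG fell with IFNγ in Ad-BRG1 cells and stayed near background in Ad-GFP cells, with an interaction of -1.13 on the log2 scale (SE 0.17). It was -0.82 with the untreated Ad-GFP cells, detected on 0 of 3 arrays, raised to the detection bound, and -0.36 on average-normalized intensity. A fall of MAG in Ad-GFP cells could not have been read, so this interaction largely restates its fall in Ad-BRG1 cells. INA had an interaction of -0.83 (SE 0.17, adjusted p = 0.0127), with 6.29, 6.45 and 6.02 in Ad-BRG1 cells with IFNγ and 6.76, 6.90 and 6.91 in untreated Ad-BRG1 cells.

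SYN2, a vesicle-coating synapsin, had an interaction of -0.72 (SE 0.13, adjusted p = 0.00712). Its Ad-BRG1 IFNγ arrays read 5.27, 5.30 and 5.44, of which 1 was detected, and its untreated Ad-BRG1 arrays read 5.79, 5.99 and 5.79. On average-normalized intensity the interactions of SYN2 and INA were -0.21 and -0.26 and did not pass (adjusted p = 0.112 and 0.0812).

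The phosphatases CTDSP1 and CTDSP2, which act with REST, moved in opposite directions, with interactions of -0.53 (SE 0.11, adjusted p = 0.0115) and 0.42 (SE 0.11, adjusted p = 0.0363). The CTDSP2 call was lost in 8 of the 12 fits that left out 1 array, with values of 0.36 to 0.47.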

How the results depend on the processing

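Changes of direction across the threshold were 0 under the alternatives run. In the BRG1 comparisons, CHGA, CHGB, ENO2 and TUBB3 kept their direction and their call under each of these alternatives. The number of the 9 detected genes that passed for IFNγ in Ad-BRG1 cells was 2 with average normalization and 2 at detection p under 0.01, against 4, and leaving out 1 array gave 3 to 5. Over all genes it was 2183 when only the compared groups were fitted, against 3379, and 2093 to 3677 with 1 array left out. Rises made up 53.2% of those calls with average normalization, against 40.1%. For IFNγ in Ad-GFP cells, leaving out 1 array gave 274 to 459 genes, against 421. The interaction passed for 842 genes, against 1270 with average normalization, 1460 with quantile normalization alone and 351 to 1594 with 1 array left out, and rises made up 63.9% with average normalization, against 53.0%. It passed for 1 of the 9 genes, against 0 at detection p under 0.01, where MAG was not tested, and 1 to 2 with 1 array left out. Genes at background numbered 3 at that detection p, against 1. Of the 55 other neural and neuroendocrine genes, 8 fell with BRG1 untreated with average normalization, against 11, and 17 rose in both. The interaction needs all 4 groups, so a fit to only the compared groups gave no value for it.

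Among same-numbered replicates, 6 of 12 pairs had r over 0.1 (range -0.15 to 0.44). The labels do not say whether same-numbered samples were handled together, and the main fit treated them as unpaired. With the replicate block the interaction passed for 1338 genes and for 2 of the 9, SNAP25 joining MAG (adjusted p = 0.049). With average normalization the untreated log2 differences of SYP, MAPT, RPRML and MAG were -1.72, -1.36, -1.18 and 0.67, against -2.80, -1.86, -2.32 and 1.53. Depth here is signal over background, and SYP and RPRML with BRG1 and MAG lay close to it.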

Other observations

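The paralogs of ENO2 and TUBB3 overlap the cytoskeleton list above, since TUBB2A, TUBB2B and TUBB4A are in both. Of 8 detected enolase and beta-tubulin paralogs, 5 were higher in untreated Ad-BRG1 than in untreated Ad-GFP cells, 1 was lower and 2 did not pass. Over all genes 26.7% were higher and 30.3% lower. TUBB6 had a log2 difference of 0.75 (SE 0.08) and ENO1, the common enolase, 0.25 (adjusted p = 0.00219), against 1.51 for ENO2. ENO3 and TUBB were not called, at 0.06 and -0.14.

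With IFNγ in Ad-BRG1 cells, 16 of the 55 other neural and neuroendocrine genes fell, 2 rose and 37 did not pass. The share called, 32.7%, was that of all genes tested, but the split by direction was not, since 19.6% of all genes fell and 13.1% rose. GLRB fell by 0.63, INA by 0.60, TUBB4A by 0.54 and PCSK1N by 0.46 on the log2 scale. When only the compared groups were fitted, PCSK1N did not pass (limma adjusted p = 0.0505). In Ad-GFP cells 2 of the 55 fell and 0 rose. RCOR2 of the REST list fell in both, by 0.60 in Ad-BRG1 cells and by 0.58 in Ad-GFP cells (adjusted p = 0.000498 and 0.00179).

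Among 3 detected adrenal cortex genes, SCARB1, the HDL receptor, was higher with BRG1 by a log2 difference of 0.59 and FDX1, the electron carrier of steroid synthesis, was lower by -0.39, while CYP11A1 was not called, at -0.10.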
